A study of Mus musculus with 6 samples.

Results

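Voltage-gated calcium channels were followed here through 10 mouse genes between the P7 and the 6wk cerebellum. Of these, 8 encode alpha1 subunits, which form the pore: Cacna1a (P/Q-type), Cacna1b (N-type), Cacna1e (R-type), Cacna1c and Cacna1d (L-type), and Cacna1g, Cacna1h and Cacna1i (T-type). The other 2, Cacna2d1 and Cacna2d2, encode alpha2delta subunits, which are auxiliary proteins and not pores, so the name pore subunits does not cover the whole set. The genes were chosen by name, with earlier results of these data known. Each had 1 row that the array annotation maps to its symbol alone, so all 10 were measured, out of 17858 genes in the data set.

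The alpha1 subunit opens when the membrane depolarises and lets calcium in, which triggers transmitter release, firing patterns and gene expression. P/Q- and N-type channels sit mainly at presynaptic terminals, T-type channels open near the resting potential, and L-type channels couple activity to signalling in the cell body. The alpha2delta and beta subunits bring alpha1 to the membrane and tune its gating. In mice, loss-of-function mutations of Cacna1a (tottering), Cacna2d2 (ducky) and Cacnb4 (lethargic) cause ataxia.

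The samples were cerebellum of C57BL/6 mice, with no other genotype or treatment in the labels. There were 3 arrays at P7 (7 days after birth) and 3 at 6wk (6 weeks of age), hybridised to an Affymetrix mouse exon array. The study compared the ages to relate expression to 5-hydroxymethylcytosine, an oxidised form of methylated cytosine. Nothing in the labels states that each replicate came from its own animal, so the tests gauge only how far these samples spread, and some of that spread may be technical. Each value averages over a gene's exons, so splicing was not analysed here.

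The P7 arrays were unlike each other in their cell type markers. The log2 of the summed signal of 5 mature granule neuron markers was 12.89, 9.40 and 12.31 in P7 replicates 1, 2 and 3, against 13.64 to 13.90 at 6wk. Of these 5 granule neuron markers, 3 were called higher at 6wk. Neurod1 was not, reading 12.20, 8.14 and 11.80 at P7 and 11.90, 11.64 and 11.72 at 6wk. Its ages overlapped. For 5 Purkinje cell markers the log2 sum was 12.77, 10.92 and 12.24, against 13.21 to 13.46. For 6 midbrain and pons neuron markers (Slc6a3, Th, Tph2, Slc6a4, Slc18a2, Slc17a6) the log2 sum ran the other way. It was 10.19, 12.66 and 11.98 at P7 and 9.62, 10.51 and 10.19 in 6wk replicates 1, 2 and 3. Of the 6, only Slc17a6 was called lower at 6wk. Th read 7.63, 9.99 and 9.23 at P7 and 8.55 to 8.75 at 6wk, so P7 replicate 1 was below every 6wk array. P7 replicate 2 was therefore lowest in the granule and Purkinje sums and highest in the midbrain and pons sum, with P7 replicate 3 in between, and 6wk replicate 1 was lowest of its age for the latter. Not every cerebellar marker followed this: among the P7 arrays the Purkinje marker Car8 was highest in replicate 2 (6.76). So was the sum of 4 molecular layer and Golgi interneuron markers (11.45, 11.57 and 11.55 at P7, 11.58 to 11.83 at 6wk), but its members differed. In P7 replicates 1, 2 and 3, Gad1 (10.32, 10.43 and 10.21) and Gjd2 (8.78, 9.999 and 9.20) were highest in replicate 2. Slc6a5 was lowest there (9.61, 8.47 and 9.88), and Prkcd was highest in replicate 1 (8.27, 8.13 and 8.11). The sum of 4 granule progenitor markers was 11.45, 9.89 and 11.09 at P7 and 9.18 to 9.30 at 6wk, with 2 of them (Mycn and Ccnd2) called lower. The sum of 2 oligodendrocyte precursor markers was 9.003, 9.735 and 9.348 at P7 and 8.10 to 8.27 at 6wk, with both called lower. The lowest row of each array read 1.91 to 2.09, so no marker could be listed at 0. Whether each marker was detected was not tested. In bulk tissue, fewer cells of a type and less RNA per cell cannot be told apart. The members are given with all arrays and without P7 replicate 2, and many also with P7 replicate 1 alone at P7.

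**Figure D1:**
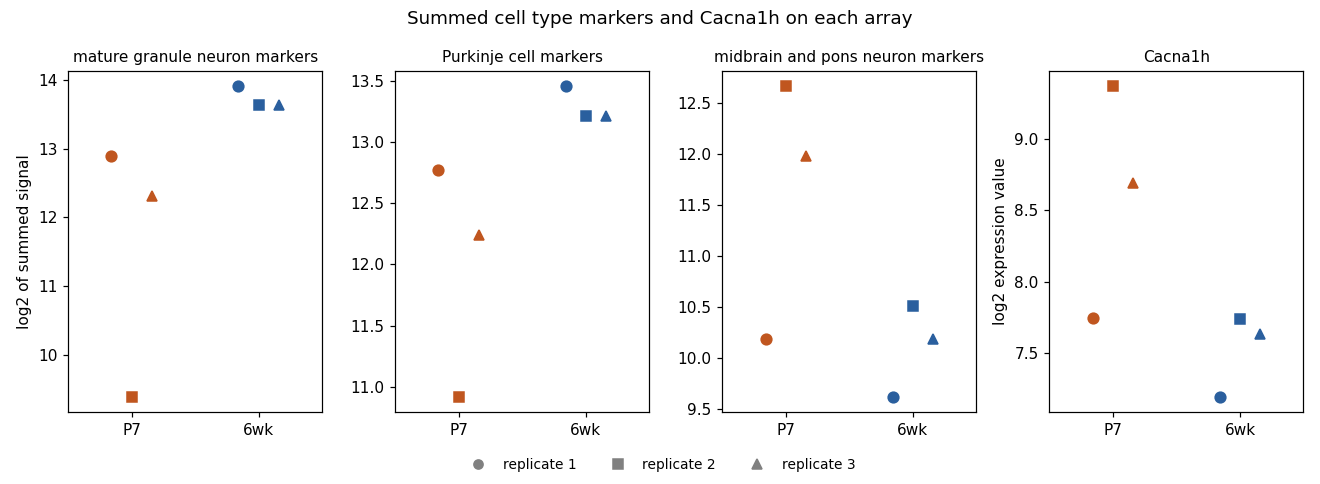
Summed log2 signal of 3 marker sets and the log2 value of Cacna1h (y axes, each with its own range) on each array at P7 and 6wk (x axis), with a symbol per replicate. P7 replicate 2 (square) lies at 9.40 for granule neuron markers, 12.66 for midbrain and pons markers and 9.37 for Cacna1h.

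The study's mark lies mostly on cytosines in CpG pairs, so the CpG content upstream of the members' start sites is shown for context; methylation itself was not analysed here. Upstream sequence of RefSeq start sites (GRCm38.p6) was at hand for 7 of the 10 genes, with 10 start sites in all. These were Cacna1b, Cacna1c, Cacna1d, Cacna1e, Cacna1i, Cacna2d1 and Cacna2d2. None was at hand for Cacna1a, Cacna1g and Cacna1h, so their upstream bases were not examined. The 250 bases upstream held 29 CpG pairs in Cacna1b, 36 in Cacna2d1, 34 in Cacna2d2 and 16 in Cacna1i, against a median of 6 over 32817 such windows. The windows of Cacna1c held 2, 5 and 48 pairs, those of Cacna1d 2 and 50, and that of Cacna1e 6. The GC box GGGCGG, on either strand, occurred in 5 of the 10 windows, and in 32.7% of all windows. The presynaptic N-type gene Cacna1b, which fell, and the T-type gene Cacna1i, which read higher at 6wk on every array, are printed below, cut to bases outside annotated genes. Cacna1b has 3 GC box matches (in capitals) and Cacna1i none. Matches also lay upstream of Cacna2d1 (6), which fell, and of Cacna1c (6), Cacna1d (5) and Cacna2d2 (1). With all arrays Cacna1c, Cacna1d, Cacna2d2 and Cacna1i did not pass limma's test. A link between GC boxes and the direction of a gene was not tested. The Cacna1b stretch is chr2:24763201-24763402 on the minus strand and the Cacna1i stretch is chr15:80286988-80287237 on the plus strand, both 5′ to 3′ along the gene.
Cacna1b: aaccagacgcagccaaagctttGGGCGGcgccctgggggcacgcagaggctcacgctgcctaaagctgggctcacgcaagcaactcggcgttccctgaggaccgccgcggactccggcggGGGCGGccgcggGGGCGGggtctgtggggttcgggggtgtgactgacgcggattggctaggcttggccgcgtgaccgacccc
Cacna1i: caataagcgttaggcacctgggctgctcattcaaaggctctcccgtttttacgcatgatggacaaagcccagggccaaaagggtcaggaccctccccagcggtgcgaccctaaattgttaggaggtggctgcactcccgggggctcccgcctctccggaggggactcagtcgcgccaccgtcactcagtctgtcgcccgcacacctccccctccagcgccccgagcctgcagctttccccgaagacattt

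Between P7 and 6wk, 1 of the 10 genes rose (Cacna1a) and 2 fell (Cacna1b and Cacna2d1), while 7 did not pass limma's test at an adjusted p of 0.05. Over all 17858 genes, 21.7% passed, 8.26% as higher and 13.4% as lower at 6wk, so a count of 3 among 10 stands close to the background. The members' log2 differences, 6wk minus P7, ran from -1.08 to 0.76 with a median of -0.03, against a median of -0.05 over all genes. Their median absolute difference was 0.38, against 0.22 over all genes. The values of the age groups did not overlap for 5 of the 10 genes, as for 42.1% of all genes. With 3 arrays against 3 an exact two-sided permutation test cannot go below p = 0.10, and those 5 genes reached that value.

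**Figure D2:**
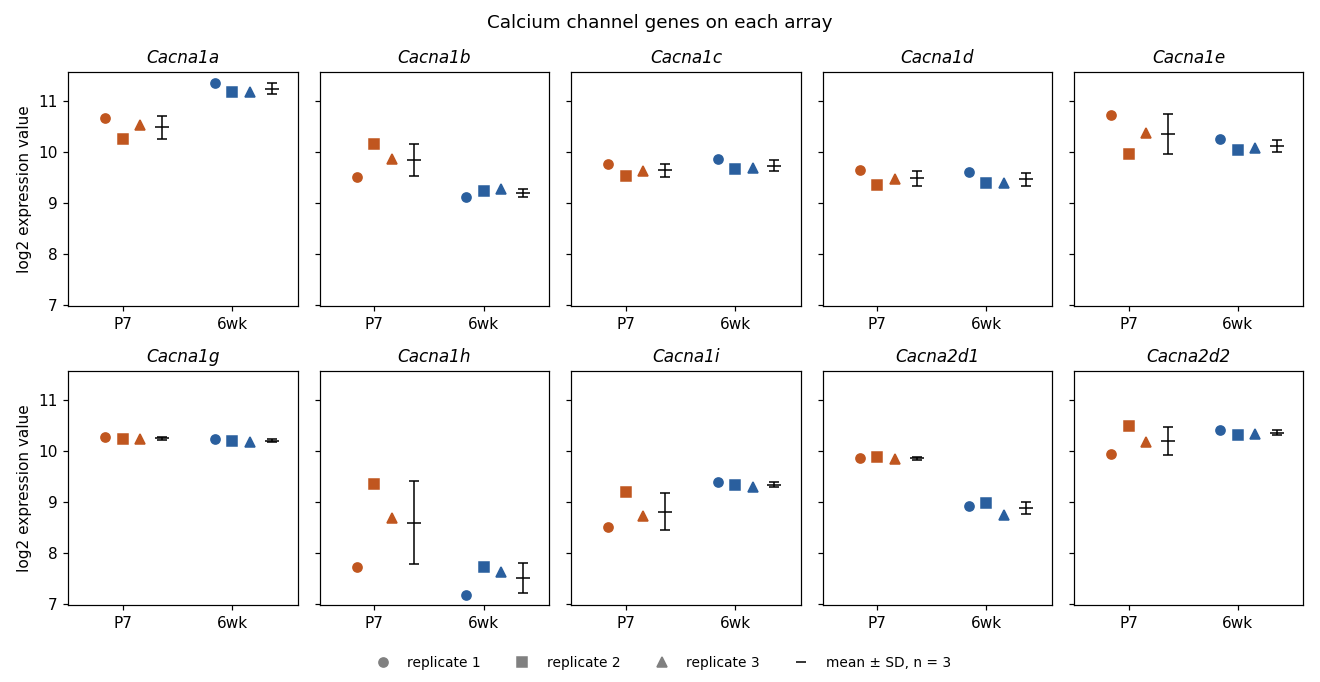
Log2 expression values (y axis) of the 10 calcium channel genes on each array at P7 and 6wk (x axis), with a symbol per replicate and the mean ± SD (n = 3) as a bar. Cacna1a lies higher and Cacna2d1 lower on all 6wk arrays, and Cacna1g stays between 10.18 and 10.29 on all 6 arrays.

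Cacna1a, the P/Q-type pore that dominates calcium current in Purkinje cells and release at mature central synapses, rose 1.69-fold. It read 10.68, 10.25 and 10.52 in P7 replicates 1, 2 and 3, and 11.37, 11.17 and 11.19 in the 6wk replicates. All 6wk arrays were above all P7 arrays, and P7 replicate 2, the array poorest in granule and Purkinje cell markers, was the lowest. The means were 10.48 ± 0.22 (SD, n = 3) and 11.24 ± 0.11 (SD, n = 3). On the log2 scale they differed by 0.76, with an SE of 0.13 (limma adjusted p = 0.0104). Without P7 replicate 2 the difference was 0.64 (limma adjusted p = 0.00815), and with P7 replicate 1 alone it was 0.56 (limma adjusted p = 0.0377). The part of the marker shift in this rise was not tested; in P7 replicates 1 and 3, too, the granule and Purkinje sums lay below those at 6wk.

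Cacna1b, the N-type pore, which serves release alongside P/Q-type channels at young synapses, fell 1.56-fold. Its values were 9.52, 10.15 and 9.87 at P7 and 9.12, 9.23 and 9.27 at 6wk, in replicate order. The groups did not overlap, yet P7 replicate 1 lay closer to the 6wk arrays than to P7 replicate 2. The log2 difference, with an SE of 0.16, was -0.64 (limma adjusted p = 0.0370), and -0.49 without P7 replicate 2 (limma adjusted p = 0.0374), a fit that called 26.8% of all genes. With P7 replicate 1 alone it was -0.31 and did not pass (limma adjusted p = 0.107), where 22.6% of all genes did. It also failed when P7 replicate 3 or a 6wk array was left out (limma adjusted p from 0.101 to 0.121), in fits that called 9.22% to 11.3% of all genes. It was lost too after quantile normalization (-0.57, limma adjusted p = 0.0685) and after centring arrays on their medians (-0.54, limma adjusted p = 0.0752). The midbrain and pons markers were highest on the same array as Cacna1b, P7 replicate 2, and their part in the fall was not tested.

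Cacna1e, the R-type pore, read 10.74, 9.97 and 10.37 at P7 and 10.26, 10.03 and 10.08 at 6wk. The P7 values enclosed the 6wk values, and the log2 difference of -0.23 (95% interval -0.71 to 0.24) did not pass (limma adjusted p = 0.456). It was -0.43 without P7 replicate 2 (limma adjusted p = 0.0750) and -0.61 with P7 replicate 1 alone (limma adjusted p = 0.0359), so the size of its difference rests on which P7 arrays are used.

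The L-type genes showed no difference that passed. Cacna1c, the main L-type pore of brain and heart, read 9.77, 9.52 and 9.64 at P7 and 9.87, 9.66 and 9.68 at 6wk, a log2 difference of 0.09 (95% interval -0.16 to 0.35, limma adjusted p = 0.581). Cacna1d, an L-type pore that opens at more negative voltages, read 9.65, 9.35 and 9.47 at P7 and 9.61, 9.39 and 9.40 at 6wk. Its log2 difference was -0.02 (95% interval -0.30 to 0.25, limma adjusted p = 0.922). In both genes the groups overlapped and replicate 1 was the highest array at each age. Without P7 replicate 2 the differences were 0.03 for Cacna1c and -0.09 for Cacna1d. The sign of the Cacna1c difference turned with P7 replicate 1 alone (-0.03), and that of Cacna1d after centring on array medians (0.08).

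Cacna1g, a T-type pore of Purkinje and deep cerebellar nuclear neurons, had the narrowest interval of the 10: 10.29, 10.23 and 10.25 at P7 and 10.25, 10.21 and 10.18 at 6wk. Its log2 difference was -0.04 (95% interval -0.23 to 0.14, limma adjusted p = 0.732), -0.05 without P7 replicate 2 and 0.06 after centring on array medians. Cacna1g varied little between the P7 arrays, with an SD of 0.029. The granule, Purkinje and midbrain and pons marker sums differed between these arrays. The part of those markers in the Cacna1g values was not tested.

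Cacna1h, a T-type pore found in sensory, thalamic and endocrine cells, had the widest spread of the members. It read 7.74, 9.37 and 8.69 at P7 and 7.19, 7.74 and 7.63 at 6wk. The lowest P7 array (7.742) lay just above the highest 6wk array (7.737), so the groups barely failed to overlap. The log2 difference of -1.08 (SE 0.40, 95% interval -2.04 to -0.12) did not pass (limma adjusted p = 0.105). It was -0.70 without P7 replicate 2 (limma adjusted p = 0.149) and -0.22 with P7 replicate 1 alone (limma adjusted p = 0.552). Without P7 replicate 1 it passed, at -1.51 (limma adjusted p = 0.0119). At both ages its arrays stood in the same order as the summed midbrain and pons markers. At P7, replicate 3 lay between the others in 67.6% of all genes. For the order at 6wk the share of all genes was not computed. The part of those markers in the Cacna1h values was not tested.

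Cacna1i, a T-type pore with slow kinetics, read 8.51, 9.21 and 8.73 at P7 and 9.40, 9.34 and 9.30 at 6wk. Every 6wk array was above every P7 array, but P7 replicate 2 came close to them. The log2 difference of 0.53 (SE 0.18) did not pass with all arrays (limma adjusted p = 0.0843). Without P7 replicate 2 it passed at 0.72 (SE 0.10, limma adjusted p = 0.00488), and with P7 replicate 1 alone at 0.84 (limma adjusted p = 0.0100).

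Cacna2d1, the alpha2delta-1 subunit that binds gabapentin, fell 1.97-fold and had the lowest adjusted p of the 10 genes. It read 9.86, 9.89 and 9.84 at P7 and 8.92, 8.99 and 8.76 at 6wk. The groups lay far apart compared with their spread, and the P7 arrays gave nearly the same value. The means were 9.87 ± 0.025 (SD, n = 3) and 8.89 ± 0.12 (SD, n = 3). They differed by -0.98 on the log2 scale, with an SE of 0.092 (limma adjusted p = 0.00154). The difference was -0.96 without P7 replicate 2 and -0.97 with P7 replicate 1 alone, and it passed in all 13 alternative fits that converged, where it ran from -1.03 to -0.87.

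Cacna2d2, the alpha2delta-2 subunit of Purkinje cells that is mutated in ducky mice, read 9.95, 10.49 and 10.19 at P7 and 10.42, 10.33 and 10.35 at 6wk. P7 replicate 2 was above every 6wk array and the other P7 arrays below them. The log2 difference of 0.16 (95% interval -0.20 to 0.51) did not pass (limma adjusted p = 0.501). It was 0.30 without P7 replicate 2 (limma adjusted p = 0.0897) and 0.42 with P7 replicate 1 alone (limma adjusted p = 0.0434).

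**Figure D3:**
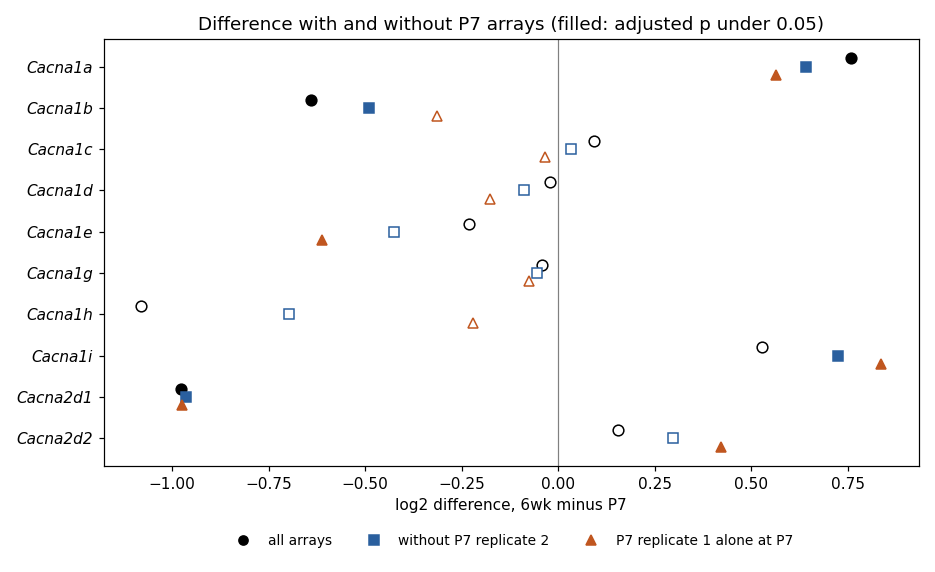
Log2 difference, 6wk minus P7 (x axis), of each calcium channel gene (y axis) with all arrays, without P7 replicate 2 and with P7 replicate 1 alone at P7; filled symbols passed limma at an adjusted p of 0.05. Cacna2d1 stays at -0.98 to -0.96, whereas Cacna1h goes from -1.08 to -0.22.

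The differences among the P7 arrays had a common order. In 9 of the 10 genes P7 replicate 3 lay between replicates 1 and 2, as in 67.6% of all genes. Replicate 2 was the highest of these in Cacna1b, Cacna1h, Cacna1i and Cacna2d2, by 0.55 to 1.63 over replicate 1 on the log2 scale. It was the lowest in Cacna1a, Cacna1c, Cacna1d and Cacna1e, by -0.25 to -0.77. Cacna1g also followed this order but within 0.054, and Cacna2d1 did not follow it. At 6wk, replicate 1 was the highest array in 7 genes and the lowest in Cacna1b and Cacna1h. In 8 of the 10 genes the SD at P7 was larger than at 6wk. For these counts the share of all genes was not computed. Across all rows the P7 arrays correlated with each other at 0.952 to 0.985 and the 6wk arrays at 0.984 to 0.989.

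Pairs of related genes were also compared within each array, where a shift between them cannot come from a scale factor of the whole array. The size of such a difference depends on the probes, so only its shift between the ages is read. Cacna1a minus Cacna1b was 1.16, 0.10 and 0.65 at P7 and 2.25, 1.94 and 1.92 at 6wk. The P/Q-type gene thus moved by 1.40 relative to the N-type gene, with no overlap between the ages, and by 0.88 with P7 replicate 1 alone. Since Cacna1a was higher and Cacna1b lower on every 6wk array than on any P7 array, the lack of overlap follows from the single genes. Cacna2d2 minus Cacna2d1 was 0.082, 0.60 and 0.35 at P7 and between 1.34 and 1.59 at 6wk, a shift of 1.13 without overlap. Of the single genes Cacna2d1 fell (-0.98), whereas Cacna2d2 differed by 0.16 with overlapping groups and did not pass.

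Cacna1g minus Cacna1i was 1.78, 1.03 and 1.51 at P7 and 0.85, 0.87 and 0.88 at 6wk, a shift of -0.57. As single genes Cacna1g differed by -0.04 and Cacna1i by 0.53, and neither passed with all arrays. Cacna1d minus Cacna1c was -0.12, -0.17 and -0.17 at P7 and -0.25, -0.27 and -0.28 at 6wk. That shift of -0.11 was small, yet the groups did not overlap. In an exact two-sided permutation test each of the 4 pairs gave p = 0.10, the smallest this design allows. Adjusted over the 4 pairs, p stayed at 0.10 in this permutation test, so none can pass 0.05. How often other pairs of genes lack overlap was not examined. Without P7 replicate 2 the shifts were 1.13 (Cacna1a minus Cacna1b), 1.26 (Cacna2d2 minus Cacna2d1), -0.78 (Cacna1g minus Cacna1i) and -0.12 (Cacna1d minus Cacna1c).

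**Figure D4:**
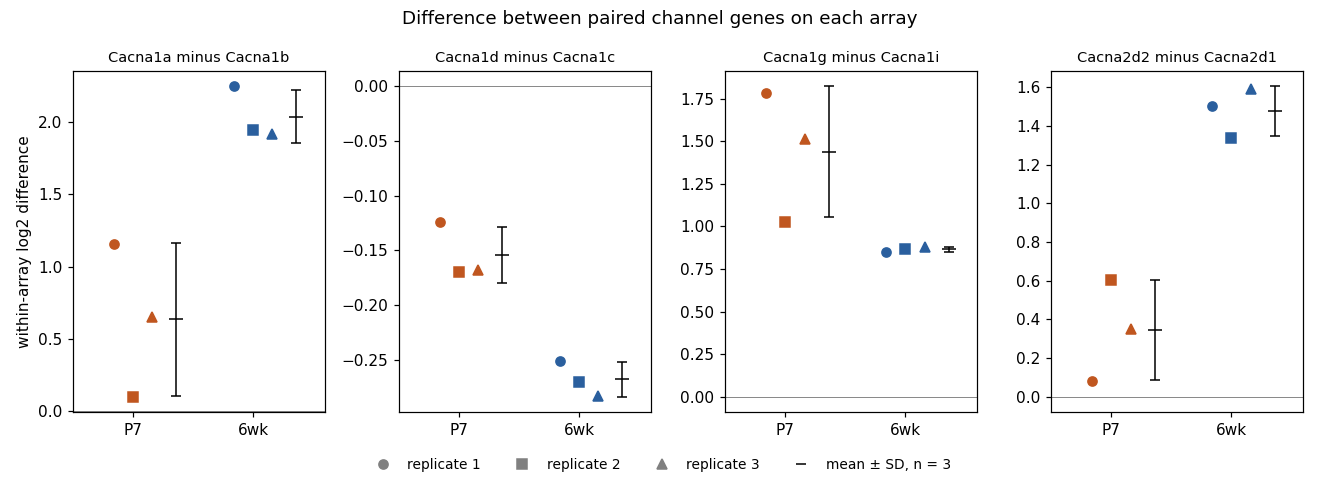
Within-array log2 difference between 2 calcium channel genes (y axes, each panel with its own range) on each array at P7 and 6wk (x axis), with a symbol per replicate and the mean ± SD (n = 3) as a bar. Cacna1a minus Cacna1b lies at 0.10 to 1.16 at P7 and at 1.92 to 2.25 at 6wk.

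Of 14 other measured channel subunit genes, 3 rose (Cacnb4, Cacng2, Cacng7), 4 fell (Cacnb1, Cacnb2, Cacna2d3, Cacng4) and 7 did not pass, with a median log2 difference of -0.08. Over all genes 8.26% were higher and 13.4% lower, with a median of -0.05. The beta subunits, which bind the alpha1 linker inside the cell, divided by gene. Cacnb4, mutated in lethargic mice, read 10.24, 10.37 and 10.18 at P7 and 11.48, 11.41 and 11.38 at 6wk. Its groups were far apart, and it rose by 1.16 (SE 0.089, limma adjusted p = 0.000827). Cacnb2 read 11.87, 11.91 and 11.94 at P7 and 11.41, 11.19 and 11.14 at 6wk, and fell by 0.66 (SE 0.10, limma adjusted p = 0.00647). Both passed whichever of the 6 arrays was left out. Cacnb1 differed by -0.83 (limma adjusted p = 0.0243), but by -0.49 with P7 replicate 1 alone (limma adjusted p = 0.0681), and it failed when P7 replicate 3 or a 6wk array was left out (limma adjusted p up to 0.0898).

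Cacna2d3, a further alpha2delta gene, fell together with Cacna2d1. It read 9.60, 9.28 and 9.32 at P7 and 8.66, 8.85 and 8.87 at 6wk, and differed by -0.61 with an SE of 0.12 (limma adjusted p = 0.0158). The groups did not overlap, but it passed in 2 of the 6 fits that left out an array, failing in those without P7 replicate 3 or a 6wk array (limma adjusted p up to 0.0627). Cacna2d4 did not pass (0.11). The remaining pore genes Cacna1f and Cacna1s, known from retina and skeletal muscle, read 7.11 to 7.38 on all arrays, near the first quartile of all rows (6.89 to 7.03), and did not pass.

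The gamma family, most of whose brain members chiefly escort AMPA-type glutamate receptors, moved in both directions. Cacng4 fell by 1.15 (SE 0.14, limma adjusted p = 0.00343), from 10.72, 11.25 and 10.94 at P7 to 9.82, 9.86 and 9.79 at 6wk, and was called in each fit that left out an array. The oligodendrocyte precursor markers Pdgfra (-1.59) and Cspg4 (-0.85) were also called lower, with the P7 arrays in the same order as in Cacng4. The midbrain and pons marker sum had this order too (10.19, 12.66 and 11.98 in P7 replicates 1, 2 and 3). P7 replicate 3 lay between the others in 67.6% of all genes. The part of either marker set in the fall of Cacng4 was not tested. Cacng7 rose by 0.41 (limma adjusted p = 0.0248), but failed with P7 replicate 1 alone (0.27, limma adjusted p = 0.110) and when P7 replicate 3 or a 6wk array was left out (limma adjusted p up to 0.113). Cacng2, or stargazin, mutated in the ataxic stargazer mouse, rose by 0.38 (limma adjusted p = 0.0371) with all arrays. Without P7 replicate 2 it differed by 0.33 and did not pass (limma adjusted p = 0.0555), and of the 6 fits that left out an array it passed in 1, that without P7 replicate 1 (limma adjusted p up to 0.145 in the others). Cacng1, Cacng3, Cacng5 and Cacng8 did not pass. Among them Cacng3 read 6.66, 8.18 and 7.66 at P7 and 6.41 to 6.48 at 6wk, highest in P7 replicate 2.

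**Figure D5:**
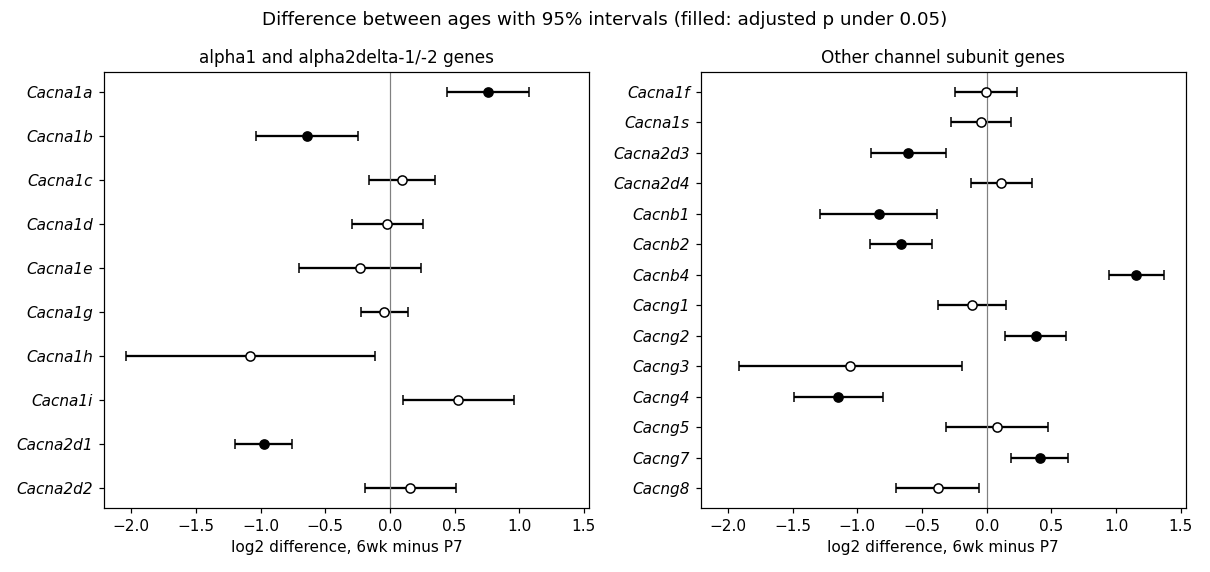
Log2 difference, 6wk minus P7, with its 95% interval (x axis) for the 10 calcium channel genes (left) and 14 other channel subunit genes (right); filled points passed limma at an adjusted p of 0.05. Cacnb4 lies highest at 1.16 and Cacng4 lowest among the called genes at -1.15.

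Of 14 measured genes for channel partners, 4 rose (Cabp1, Cabp2, Rims1, Rims2), 1 fell (Cachd1) and 9 did not pass, with a median of 0.06, where 21.7% of all genes were called with a median of -0.05. Among the 9, Stac2, an adaptor protein of L-type channels, differed by 0.83 with all arrays (limma adjusted p = 0.0680). It passed without P7 replicate 2 (1.06, limma adjusted p = 0.0160), with P7 replicate 1 alone (1.36, limma adjusted p = 0.0160), after quantile normalization and with a replicate block. Rims1 and Rims2, active zone scaffolds that tether presynaptic calcium channels near vesicles, rose by 0.92 and 1.14 (limma adjusted p = 0.00129 and 0.000757). Rims1 read 9.67, 9.77 and 9.63 at P7 and 10.59, 10.61 and 10.61 at 6wk, with the groups well apart. Cabp1, a calmodulin-like protein that modulates channel inactivation, rose by 1.39 (limma adjusted p = 0.00118). These 3 genes were called in each fit that left out an array. Cabp2 rose by 0.62 (limma adjusted p = 0.0134). It failed when P7 replicate 3, 6wk replicate 1 or 6wk replicate 3 was left out (limma adjusted p up to 0.0673). Its P7 values (7.04, 7.34 and 7.04) lay near the first quartile of all rows (6.89 to 7.03). Cachd1, an alpha2delta-like protein, differed by -1.03 (limma adjusted p = 0.0318), but by -0.78 without P7 replicate 2 and by -0.57 with P7 replicate 1 alone, where its call was lost (limma adjusted p = 0.113). It failed likewise when P7 replicate 3 or a 6wk array was left out (limma adjusted p up to 0.109). Cachd1 was highest in P7 replicate 2 (10.09), as were the midbrain and pons markers, whose part in it was not tested.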

How the data were processed

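Total RNA of mouse cerebellum was depleted of ribosomal RNA and hybridised to exon arrays, per the labels' protocols. The authors deposited log2 values for 23750 rows; RMA, Affymetrix Power Tools and mm9 are named in the submitters' processing notes, and neither their versions nor any filter is stated there. The number of arrays, 6, limits the precision.

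Rows were named from the platform annotation: 18463 had 1 gene symbol, 1799 several and 3488 none. RefSeq names changed 0 symbols. For 471 genes with several rows the row with the highest mean was kept, which left 17858 genes. For 6wk minus P7, lmFit and eBayes of limma 3.58.1, run in R 4.3.3, were applied to all genes, two-sided and without a block, and p-values were adjusted by Benjamini-Hochberg over all genes. The steps were tested on simulated data. Marker levels are the log2 of summed linear signal.

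The members, lists and markers were chosen with earlier results of these data known, and all members and called list genes are named. Cacnb3, Cacng6, Rem1 and Itpr1 were not analysed here. Alternatives were quantile normalization, median centring, leaving out dim rows (lowest 25% by mean), the mean over a gene's rows, limma's trend, array weights, a replicate block, leaving out arrays singly, and P7 replicate 1 alone at P7. With 1 array that fit assumes that P7 varies like 6wk.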

Additional observations from a re-analysis of the deposited data

How the results depend on the processing

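Of 14 alternatives, 13 gave a converged fit. Cacna1a and Cacna2d1 passed in all 13 and Cacna1b in 6, and these 3 genes had the same direction in each. Each member had 1 row, so the mean over a gene's rows could not alter its values. Leaving out dim rows, limma's trend and the replicate block left its log2 difference unchanged as well. Cacna1b passed in those fits, and otherwise only without P7 replicate 1 and without P7 replicate 2. After quantile normalization and after centring on medians 1 member was lower in place of 2. Centring moved the median of all genes from -0.05 to 0.05, and the split of all calls from 1475 higher and 2395 lower to 2169 and 1671 (2110 and 1773 after quantile normalization). Leaving out 1 array gave 1 to 2 members higher and 1 to 3 lower, 682 to 1788 genes higher and 965 to 3073 lower, 1 to 3 other channel subunits higher and 2 to 5 lower, and 3 to 5 partners higher and 0 to 2 lower. With P7 replicate 1 alone 3 members were higher (Cacna1a, Cacna1i, Cacna2d2) and 2 lower (Cacna1e, Cacna2d1), 1 other channel subunit was higher, 0 partners were lower, and the shifts of the 4 pairs were 0.88 (Cacna1a minus Cacna1b), -0.14 (Cacna1d minus Cacna1c), -0.91 (Cacna1g minus Cacna1i) and 1.39 (Cacna2d2 minus Cacna2d1). Array weights gave 3 members higher and 4 lower, 7 other subunits lower, 8 partners higher and 3 lower, 2 store genes lower, and 4425 genes higher and 6933 lower. That fit did not converge and gave P7 replicate 3 a weight of 341 against at most 1.00 for the others, so its calls are printed but support nothing. For the other losses the cause was not tested.

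With a replicate block 1 member was higher and 3 lower, Cacna1h passing at -1.08 (limma adjusted p = 0.0363), and 1199 genes were higher and 2074 lower. The deviations of same-numbered arrays correlated at 0.27, 0.14 and -0.056 across genes, and not every array correlated best with its own number, so the numbers were not taken to pair the samples.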

Other observations

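Calcium is released from stores inside the cell, and emptied stores open channels in the cell membrane (store-operated entry). Of 10 measured genes of these pathways 4 rose, 1 fell and 5 did not pass, with a median log2 difference of 0.29, where 21.7% of all genes were called with a median of -0.05. Itpr2, an inositol trisphosphate receptor, read 8.81, 8.86 and 8.96 at P7 and 7.68, 7.78 and 7.82 at 6wk, and fell by 1.12 (SE 0.088, limma adjusted p = 0.000905). Its relative Itpr3 read 7.37, 7.45 and 7.44 at P7 and 8.39, 8.24 and 8.22 at 6wk, and rose by 0.86 (limma adjusted p = 0.00184). The groups of both genes lay far apart compared with their spread.

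Orai3, a store-operated channel, rose by 0.72 (limma adjusted p = 0.00265), Stim1, the store calcium sensor, by 0.57 (limma adjusted p = 0.00637) and Ryr1, a ryanodine receptor, by 0.58 (limma adjusted p = 0.00484). All 5 called store genes were also called in each of the 6 fits that left out an array and with P7 replicate 1 alone. Ryr2 differed by 0.49 and did not pass (limma adjusted p = 0.0658), reading lowest in P7 replicate 2 (9.01), and Stim2, Orai1, Orai2 and Ryr3 did not pass either.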
